A study of Homo sapiens with 12 samples.

Results

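Cal27 cells made resistant to afatinib (AfaR) were compared with the parental Cal27 cells they were derived from, a choice of 4 libraries among the 12 of the study. Cal27 is an established line from a squamous cell carcinoma of the tongue, and afatinib is an irreversible inhibitor of the ERBB receptor kinases. The study sequenced poly(A)-selected RNA of Cal27 and of FaDu, a hypopharyngeal squamous carcinoma line, each as parental, afatinib-resistant and erlotinib-resistant (ErlR) cells with 2 libraries per group. Resistance had been selected with stepwise increasing drug, every line is labelled as wild-type in genotype and received no other stated agent, and resistant stocks were grown under drug and then without it for a short time before use. AfaR is 1 resistant population, so its 2 libraries sample that population and not separate derivations. The labels call them biological replicates and say nothing more of their origin, and p-values therefore measure the spread between these libraries.

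Squamous epithelial cells hold together through E-cadherin junctions, desmosomes and keratin filaments, under transcription factors such as p63 and the grainyhead-like proteins. In epithelial-mesenchymal transition (EMT), repressors of the ZEB, SNAIL and TWIST families replace much of this program with vimentin filaments, matrix proteins and matrix proteases. ERBB receptors and their ligands drive growth of squamous carcinoma through the RAS-ERK and PI3K pathways, and EMT and other receptor tyrosine kinases have been studied as routes around their inhibition.

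The 4 libraries held between 16334937 and 16689855 counts assigned to genes. Pearson correlation of log2 CPM (the counts of a gene relative to the total of its library after TMM scaling) across genes was 0.9855 between the parental libraries, 0.9856 between the AfaR libraries and 0.901 to 0.9108 between groups. Mitochondrial transcripts took 1.53% to 2.32% of gene counts, and replicate 2 was the higher in each group. The 14 tested markers of squamous epithelium summed to 7175 and 5644 CPM in parental cells and to 1649 and 1489 CPM in AfaR. As a set they were detected in all 4 libraries, at a lower level in AfaR. By the calls defined below 13 of the 14 were lower, with a median log2 fold change of -2.79. In both AfaR libraries 12 of them were at 1 CPM or more. In bulk RNA, fewer cells expressing a gene and less RNA of it per cell cannot be told apart.

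edgeR's quasi-likelihood test on 15269 genes called 1761 genes higher in AfaR, 11.5% of those tested, and 1230 lower, 8.06%, together 2991 or 19.6%. A call needed a Benjamini-Hochberg adjusted p under 0.05 and a log2 fold change past 1 in size. Of the calls, 892 higher and 524 lower passed a log2 fold change of 2, and 101 and 54 passed 5. The median log2 fold change over all genes tested was -0.00. A filter on low counts could be passed through any 1 group, so some genes entered only through the group where they were high. The share of a list called therefore rests in part on the filter. Matrix protease and inhibitor genes at 1 CPM or more in both libraries numbered 21 in parental cells and 28 in AfaR. These numbers were 24 and 30 for matrix glycoproteins and proteoglycans, 35 and 42 for TGF-β and BMP genes, and 20 and 13 for keratins. Counts for gene lists use the same calls, and every count of 0 given below for a list was also 0 by DESeq2 and at an unadjusted p under 0.05, except that the list of epithelial and squamous regulators had 1 gene higher, SOX2, at an unadjusted p. In all 2991 called genes the AfaR and parental libraries did not overlap, which was also so for 72.2% of all genes tested at any fold. Protein-coding genes made up 1557 of the higher and 1037 of the lower calls, and long noncoding RNAs 152 and 128. Among the strongest rises in the plot of change against level were the lncRNA FENDRR and its neighbour FOXF1, a forkhead factor of lung and gut mesenchyme, and among the strongest falls were OLFM4, KRT6B and KRT14.

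**Figure D1:**
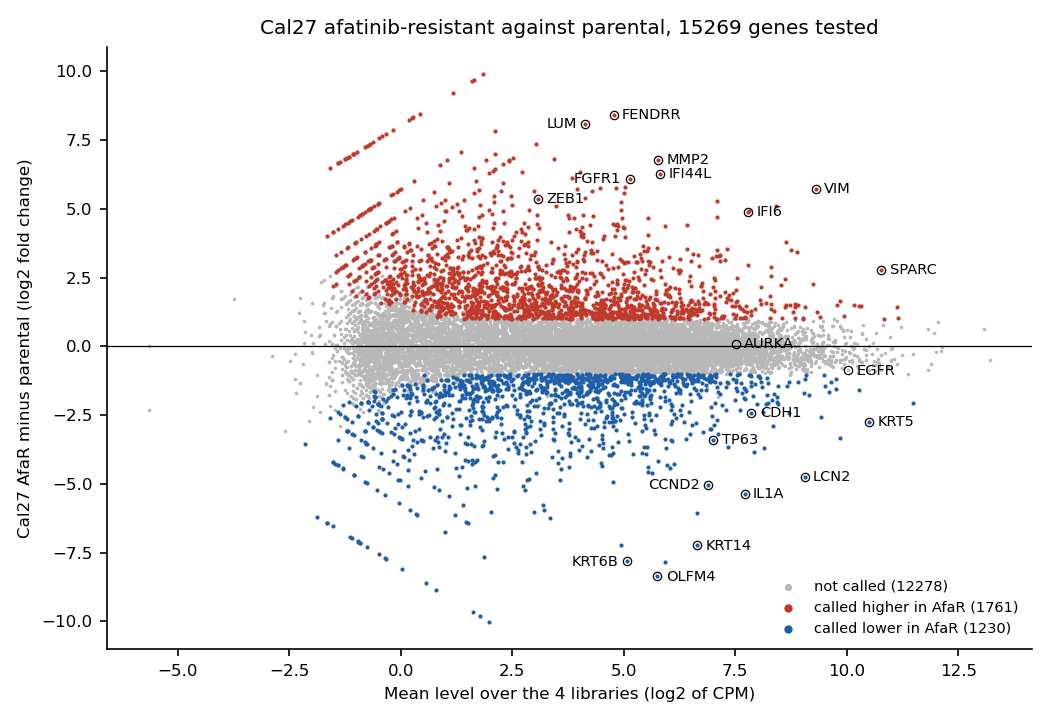
Each point is 1 of 15269 genes, with its mean level over the 4 libraries (log2 of CPM) on the x axis and its log2 fold change of AfaR over parental on the y axis. The 1761 genes called higher are red, the 1230 called lower are blue and the others are grey; slanted rows of points at the left are genes with 0 to a few counts in 1 group, and EGFR and AURKA lie among the grey points while VIM, at 5.74, and LCN2, at -4.74, are called at high levels.

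Epithelial adhesion genes fell. CDH1, the epithelial cadherin, read 360 and 423 CPM in the parental libraries and 79.9 and 65.9 CPM in AfaR. EPCAM, an epithelial surface adhesion protein, read 228 and 226 CPM in parental cells and 30.9 and 32.3 CPM in AfaR. In neither gene did the groups overlap, and replicates of a group lay close together beside the gap between groups. The log2 fold changes were -2.42 (SE 0.15) for CDH1 and -2.84 (SE 0.13) for EPCAM, with adjusted p of 7.71e-06 and 2.23e-06 by edgeR's quasi-likelihood test. CDH3, the basal P-cadherin, fell by 1.76 on the log2 scale and JUP, the plakoglobin that links cadherins to the cytoskeleton, by 2.06. In contrast CDH2, the neural cadherin that often replaces CDH1 in EMT, rose from 57.9 and 56.3 CPM to 165 and 178 CPM, a log2 fold change of 1.59. CDH11 (2.80) and CDH13 (1.48) rose too, so that of 10 cadherins and catenins tested 3 were higher and 3 lower.

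Of 10 desmosome genes tested, 5 were lower and 0 higher, with a median log2 fold change of -1.11. DSG3, a desmosomal cadherin of squamous epithelium, read 44.1 and 41.7 CPM in parental cells and 4.66 and 1.92 CPM in AfaR. PKP1, a plakophilin of the desmosomal plaque, changed by -3.84, and DSP, the desmoplakin that anchors keratin filaments, by -1.31. Of 25 tight junction and epithelial surface genes, 14 were lower and 0 higher, with a median of -1.29. The polarity protein gene CRB3 read 18.2 and 19.9 CPM against 2.19 and 2.58 CPM. MARVELD3, of the tight junction, changed by -3.47, CLDN7 by -3.05 and the membrane protease gene ST14 by -2.75. CLDN4 was not called, with 112 and 121 CPM in parental cells, 79 and 76.2 CPM in AfaR and a log2 fold change of -0.59.

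The transcription and splicing regulators of the epithelial state fell with the junctions. Of 19 epithelial and squamous regulators tested, 15 were lower and 0 higher, and their median log2 fold change was -2.50. TP63, the master regulator of squamous identity, read 238 and 232 CPM in parental cells and 27.3 and 16.9 CPM in AfaR. ESRP1, which directs epithelial splicing, read 117 and 111 CPM against 9.43 and 8.39 CPM, and GRHL2, a grainyhead-like activator of junction genes, 73.3 and 86.3 CPM against 9.99 and 10.6 CPM. The parental values of these regulators were several times the AfaR values in every library. Log2 fold changes were -3.41 (SE 0.21) for TP63, -3.68 (SE 0.17) for ESRP1 and -2.96 (SE 0.16) for GRHL2, all with adjusted p under 0.05 by edgeR's quasi-likelihood test. TRIM29 (-3.67), GRHL1 (-4.01) and OVOL1 (-4.21), a repressor of EMT, also fell. SOX2, a stem cell and squamous lineage factor, was not called at 1.26 and 1.94 CPM in parental cells and 5.56 and 2.82 CPM in AfaR. KLF4, named after its values were seen, was not called either, at 16.4 and 16.6 against 25.4 and 28.8 CPM.

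**Figure D2:**
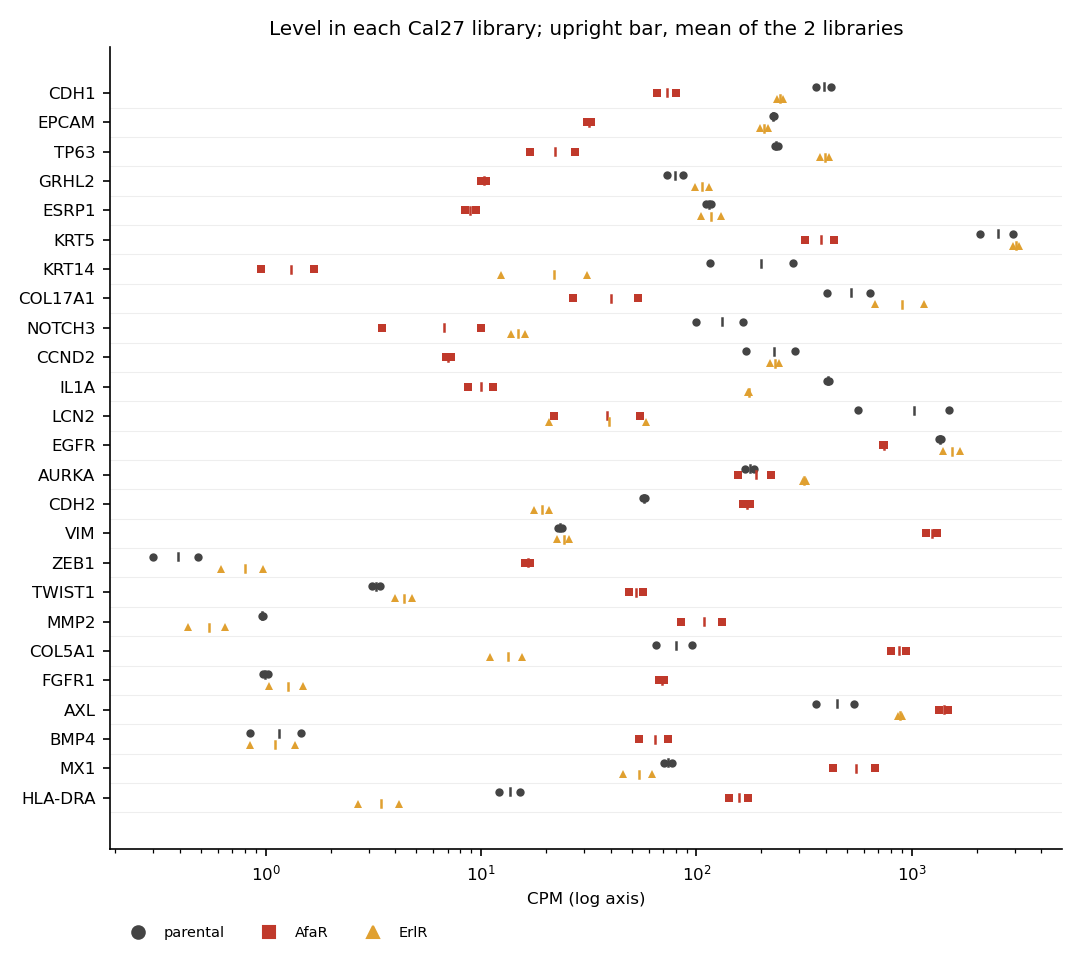
Each row is a gene, and each point is its level in 1 library in CPM on a log axis, for parental (dark circles), AfaR (red squares) and ErlR (yellow triangles) Cal27 cells, with an upright bar at the mean of the 2 libraries of a group. From CDH1 to LCN2 the AfaR points lie to the left of the parental points and from CDH2 to HLA-DRA to the right, whereas for AURKA the parental and AfaR points overlap.

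Of 17 EMT transcription factors tested 9 were higher and 2 lower, with a median of 1.77. ZEB1 read 0.3 and 0.484 CPM in parental cells and 16.1 and 16.9 CPM in AfaR, and ZEB2 read 1.86 and 1.7 CPM against 35.2 and 27 CPM. TWIST1 read 3.12 and 3.39 CPM against 56.3 and 48.5 CPM. These genes stood near the detection limit or low in the parental line and at a moderate level in both AfaR libraries. Their log2 fold changes were 5.37 (SE 0.36) for ZEB1, 4.12 (SE 0.25) for ZEB2 and 4.00 (SE 0.20) for TWIST1. SNAI2 read 34 and 31.2 CPM against 61.6 and 68.3 CPM, a log2 fold change of 1.00 that did not exceed the threshold of 1 (adjusted p = 0.00205 by edgeR's quasi-likelihood test). SNAI1, named after its values were seen, fell by 2.63 on the log2 scale at a low level, from 3.12 and 2.67 CPM to 0.674 and 0.24 CPM. SOX4 (2.37) and RUNX2 (2.53), developmental factors also active in carcinoma, rose.

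ZEB and SNAIL proteins bind E-boxes of the letters CACCTG, so the 250 bases before the start of each gene were searched for CACCTG on either strand (CAGGTG on the printed strand). The search was added after the values were seen. Of 15170 named genes tested, 11242 had a promoter in the set of RefSeq promoters used here (GRCh38.p14), which does not hold every gene. A gene counted as a match if any of its annotated promoters held the letters, so genes with several starts had more chances. By gene the letters occurred in 21.1% of these 11242, in 21.8% of 1305 called higher and in 32.5% of 808 called lower. These are not rates per promoter: over all 35116 promoter entries the share was 17.5%. Among members of the epithelial lists they occurred in 14 of 36 genes with a promoter, and in 9 of 20 of those called lower. These lists held 74 genes tested and 46 called lower, so many had no promoter to search, CDH1 among them. A match is not a binding site, and no binding was measured. The genes shown were picked among those called lower in these lists with a single promoter and a match. The promoters of 3 genes that fell are shown with every match in capitals, 5′ to 3′ in the direction of the gene: CRB3 at chr19:6464021-6464270 (+), which has 5 matches, KRT5 at chr12:52520395-52520644 (-) and ELF3, an epithelial ETS factor, at chr1:202010337-202010586 (+).
CRB3: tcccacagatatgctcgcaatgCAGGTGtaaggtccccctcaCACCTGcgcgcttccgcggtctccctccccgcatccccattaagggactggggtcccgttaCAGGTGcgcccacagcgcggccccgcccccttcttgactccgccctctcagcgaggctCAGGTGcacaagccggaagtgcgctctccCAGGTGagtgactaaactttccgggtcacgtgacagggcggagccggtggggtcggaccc
KRT5: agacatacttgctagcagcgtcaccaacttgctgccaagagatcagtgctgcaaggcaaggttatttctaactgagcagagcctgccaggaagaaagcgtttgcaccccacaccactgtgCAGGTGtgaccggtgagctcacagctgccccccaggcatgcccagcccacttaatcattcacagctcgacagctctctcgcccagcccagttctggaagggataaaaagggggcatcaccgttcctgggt
ELF3: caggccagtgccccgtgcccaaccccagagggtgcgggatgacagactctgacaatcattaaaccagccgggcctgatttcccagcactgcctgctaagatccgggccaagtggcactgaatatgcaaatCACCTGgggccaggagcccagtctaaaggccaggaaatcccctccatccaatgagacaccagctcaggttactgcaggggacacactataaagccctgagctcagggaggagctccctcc
ELF3, chosen for its promoter, read 41.5 and 107 CPM in the parental libraries and 13.5 and 12.7 CPM in AfaR, a log2 fold change of -2.50.

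Keratins of stratified squamous epithelium fell. Of 20 keratins tested, 12 were lower and 0 higher, with a median of -1.43. KRT5, the basal keratin, read 2954 and 2071 CPM in parental cells and 437 and 319 CPM in AfaR, and its partner KRT14 read 281 and 116 CPM against 0.954 and 1.68 CPM. The log2 fold changes were -2.73 (SE 0.22) and -7.24 (SE 0.63). KRT6A (-4.62) and KRT6B fell as well; for KRT6B, with few counts in AfaR, the ratio of parental to AfaR counts was 231 (exact 95% interval 125 to 483, counting error only). KRT6A and KRT6B are near-identical copies, and their separate values are uncertain where reads could be split between them. Of the keratins of simple epithelium KRT18 fell by 1.44 on the log2 scale, and KRT8 was not called at 1552 and 1117 CPM in parental cells against 1039 and 1058 CPM in AfaR.

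Of 42 genes of the cornified envelope and squamous differentiation, 20 passed the filter on low counts, through whichever group held them, and 17 of these were lower and 1 higher. The alarmin genes S100A8 (28.7 and 93.3 CPM against 0.393 and 0.42 CPM) and S100A9 (94 and 300 CPM against 3.82 and 2.1 CPM) fell to a few CPM or less. CALML3, a calmodulin-like protein of stratified epithelium, read 26 and 20 CPM against 1.74 and 0.959 CPM, and the kallikrein gene KLK8 read 13.1 and 13.6 CPM against 0.505 and 0.18 CPM. IVL and TGM1, the classical envelope genes, were below 1 CPM in all 4 libraries and were not tested. The near-identical serpins SERPINB3 (-4.25) and SERPINB4 (-4.39) fell together, with the same doubt over shared reads as for the KRT6 genes, and SERPINB3 was at -6.87 without AfaR replicate 1.

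Mucosal secretory and innate defence genes were lower in AfaR and uneven in the parental line. Of 24, 18 were tested, 14 were lower and 0 higher. OLFM4, an olfactomedin of secretory epithelium, read 21.6 and 193 CPM in parental replicates 1 and 2 and 0.393 and 0.24 CPM in AfaR. PIGR, which carries immunoglobulins across epithelium, read 26.9 and 214 CPM against 0.674 and 0.36 CPM, and LCN2, a siderophore-binding defence protein, 561 and 1492 CPM against 54.7 and 21.8 CPM. Parental replicate 2 was the higher in each of these genes, and even parental replicate 1 stood above both AfaR libraries. The fold depended on that replicate: between fits that left out 1 library the log2 fold change of OLFM4 ran from -9.21 to -6.06 and that of PIGR from -8.66 to -5.67, and the list had 12 lower calls without parental replicate 2 and 16 without parental replicate 1.

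Vimentin, the intermediate filament protein of mesenchymal cells, was low in parental cells and high in AfaR. VIM read 23.7 and 22.6 CPM in parental cells and 1167 and 1311 CPM in AfaR. Its log2 fold change was 5.74 (SE 0.17, adjusted p = 4.18e-07 by edgeR's quasi-likelihood test), and replicates differed by far less than the groups. MYLK, the myosin light chain kinase, rose from 15.9 and 12.3 CPM to 476 and 385 CPM. MYL9 rose by 2.16. ACTA2, the smooth muscle actin of myofibroblasts, was not called at 3 and 4 CPM against 4.77 and 5.16 CPM, and FSCN1, an actin-bundling protein of invasive cells, fell from 808 and 558 CPM to 252 and 301 CPM. Of 19 genes of the mesenchymal and contractile cytoskeleton 5 were higher and 2 lower, or 1 lower without AfaR replicate 1.

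Matrix genes rose in number, with exceptions among the best known. Of 36 collagens and collagen-processing genes 12 were higher and 1 lower, 3 without parental replicate 1, and of 32 matrix glycoproteins and proteoglycans 14 were higher and 1 lower. COL5A1, of fibrillar collagen V, read 65.1 and 95.8 CPM in parental cells and 940 and 799 CPM in AfaR, and COL1A1 read 26.2 and 36.8 CPM against 276 and 282 CPM. SPARC, a collagen-binding matricellular protein, read 421 and 465 CPM against 2892 and 3206 CPM. The log2 fold changes were 3.43 (SE 0.23) for COL5A1, 3.15 (SE 0.28) for COL1A1 and 2.78 (SE 0.30) for SPARC. COL6A1 (3.29), COL6A2 (3.10), COL8A1 (4.38), the microfibril gene FBN1 (5.59) and the proteoglycan gene VCAN (5.75) rose as well. COL17A1, the hemidesmosomal collagen of basal keratinocytes, was the collagen that fell, from 640 and 402 CPM to 53.6 and 26.8 CPM. COL3A1 stayed near 1 CPM in all 4 libraries and was not called, COL1A2 was not called at 0.91, and FN1, the fibronectin gene often used as an EMT marker, was not called at 297 and 333 CPM against 370 and 242 CPM. IGFBP3, an insulin-like growth factor carrier, fell from 2322 and 6976 CPM to 1058 and 1169 CPM, and lost its call without AfaR replicate 1, with log2 fold changes from -2.64 to -1.06 between fits that left out 1 library.

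Integrins and laminins divided, 7 higher and 9 lower of 25 tested, around a median of 0.05. The hemidesmosome integrin gene ITGB4 read 648 and 469 CPM in parental cells and 172 and 100 CPM in AfaR, and ITGA6 and the laminin 332 subunit gene LAMA3 fell by 1.49 and 2.09 on the log2 scale. The fibronectin receptor gene ITGA5 read 60.1 and 64.6 CPM against 220 and 276 CPM, and ITGA4 (1.97) and LAMB2 (2.03) rose with it. Among 32 matrix proteases and inhibitors 16 were higher and 5 lower. MMP2, a gelatinase, read 0.961 and 0.969 CPM in parental cells and 132 and 84.8 CPM in AfaR, a log2 fold change of 6.80 (SE 0.29). MMP7, the matrilysin of epithelial tumours, moved the other way, from 30.7 and 64 CPM to 3.37 and 2.82 CPM, and MMP14, which activates pro-MMP2, was not called at -0.41. Inhibitor genes TIMP1 (1.96) and TIMP2 (2.55) rose.

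TGF-β ligands induce EMT in many epithelial cells, and 20 of 44 TGF-β and BMP pathway genes were higher and 2 lower, 4 without parental replicate 1, with a median of 0.80. TGFB2 read 90.2 and 106 CPM in parental cells and 476 and 402 CPM in AfaR, and TGFB1 read 39.6 and 36.6 CPM against 182 and 166 CPM. The type II receptor gene TGFBR2 read 57.5 and 58.3 CPM against 174 and 168 CPM, and the type I receptor gene TGFBR1 33.8 and 35.6 CPM against 133 and 103 CPM. All AfaR values exceeded all parental values, with log2 fold changes of 2.16, 2.19, 1.56 and 1.77 for TGFB2, TGFB1, TGFBR2 and TGFBR1, of which TGFB1 and TGFBR1 were named after their values were seen. TGFBR3, the coreceptor betaglycan, held 2 and 1 counts in the parental libraries and 223 and 145 in AfaR, a ratio of 118 (exact 95% interval 40 to 574). BMP4 rose from 0.841 and 1.45 CPM to 73.6 and 54.2 CPM. The 2 that fell were INHBA, the activin A subunit, from 795 and 620 CPM to 102 and 160 CPM, and FST, the activin antagonist follistatin, from 320 and 199 CPM to 50.8 and 52.7 CPM.

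In WNT signalling 15 of 38 genes were higher and 4 lower. The receptor gene FZD7 read 19.6 and 19.4 CPM in parental cells and 122 and 144 CPM in AfaR, a log2 fold change of 2.77 (SE 0.15). The noncanonical ligand gene WNT5A rose from 3.42 and 20.8 CPM to 98.1 and 80 CPM, by 2.88 on the log2 scale and by 4.69 without parental replicate 2, whereas WNT7A fell from 50 and 35.3 CPM to 3.87 and 3.66 CPM. NOTCH signalling, which drives squamous differentiation, had 8 genes lower and 2 higher of 18, 1 higher without AfaR replicate 1. NOTCH3 read 99.1 and 165 CPM against 9.99 and 3.48 CPM, and the ligand gene JAG2 164 and 180 CPM against 30.1 and 20.3 CPM. NOTCH1 (-1.33), JAG1 (-1.95), DLL1 (-1.97) and the target gene NRARP (-2.18) fell too, and NOTCH2, named after its values were seen, rose by 1.38. The target gene HES1 was not called at 0.07.

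**Figure D3:**
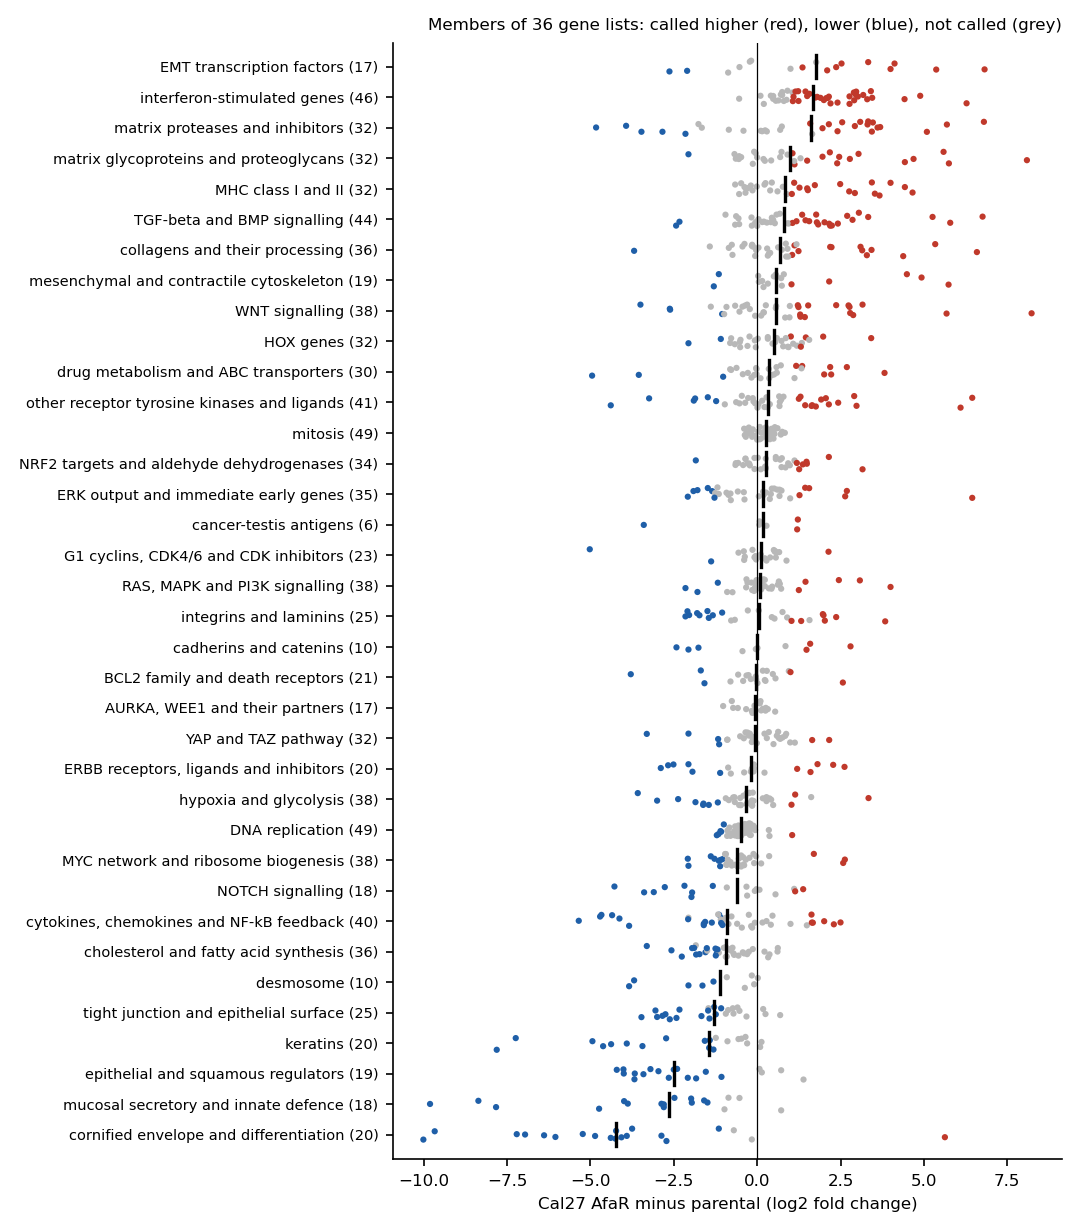
Each point is a gene of 1 of 36 lists, placed by its log2 fold change of AfaR over parental on the x axis and coloured red if called higher, blue if called lower and grey if not called, with a black bar at the median of the list and the number tested in brackets. Medians run from 1.77 for EMT transcription factors to -4.24 for the cornified envelope list, where genes at 0 in AfaR are drawn at fitted folds and the median with such genes at their bound is -4.15.

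Among the ERBB receptors EGFR and ERBB2 were not called and ERBB3 fell, and several of their ligands fell. ERBB4 was not tested, at 0 and 0.182 CPM in parental cells and 0.281 and 0.3 CPM in AfaR. EGFR read 1366 and 1336 CPM in parental cells and 744 and 736 CPM in AfaR. The groups did not overlap, but the log2 fold change of -0.87 (SE 0.14, adjusted p = 0.00139 by edgeR's quasi-likelihood test) was within the threshold of 1 in size. ERBB2, named after its values were seen, read 58.6 and 68.9 CPM against 64 and 54.8 CPM and was not called. ERBB3, the kinase-impaired partner of ERBB2, fell from 29.6 and 47.6 CPM to 12.8 and 7.19 CPM. The EGFR ligand gene AREG read 37.4 and 26.2 CPM in parental cells and 4.77 and 5.21 CPM in AfaR, HBEGF 43.6 and 53.6 CPM against 5.78 and 11.3 CPM, and TGFA 71.6 and 52.3 CPM against 14.2 and 15.5 CPM. These 3 ligands were lower in both AfaR libraries, with log2 fold changes of -2.67 (SE 0.33), -2.51 (SE 0.35) and -2.06 (SE 0.29). EREG was not called at -0.79. NRG1, the ligand of ERBB3, was called at -1.11 but lost the call when parental replicate 1 or AfaR replicate 1 was left out. CBLC, an epithelial ubiquitin ligase for EGFR, fell by 2.89 and the receptor phosphatase gene PTPRJ rose by 2.28. In all, 5 of 20 genes of the ERBB list were higher, 3 without parental replicate 1 or without AfaR replicate 1, and 6 were lower.

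Of 41 genes of other receptor tyrosine kinases and their ligands 14 were higher, 6 lower and 21 not called, with 8 higher and 3 lower among 23 receptors. FGFR1 read 1.02 and 0.969 CPM in parental cells and 70.5 and 67.2 CPM in AfaR, a log2 fold change of 6.10 (SE 0.22, adjusted p = 9.32e-07 by edgeR's quasi-likelihood test). The parental libraries held it at a low level, and replicates of each group lay close together. FGFR3 fell by 1.86, FGFR2 was not called at -0.63, and FGFBP1, a secreted carrier of FGFs, fell from 105 and 74.3 CPM to 4.1 and 4.43 CPM. AXL, a receptor linked to EMT and to resistance against EGFR inhibitors, was abundant in parental cells at 538 and 357 CPM and reached 1335 and 1477 CPM in AfaR, a log2 fold change of 1.65 (SE 0.19). Its ligand gene GAS6, named after its values were seen, rose by 1.25. The insulin receptor gene INSR (2.98), PDGFRB (2.91) and the ligand gene PDGFC (2.43) rose, EPHA1 fell by 3.24, and MET was not called at 501 and 561 CPM against 375 and 398 CPM.

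Downstream of the receptors, 5 of 38 components of RAS, MAPK and PI3K signalling were higher (13.2%) and 3 lower (7.89%), beside 11.5% and 8.06% of all genes tested, with a median of 0.08. MRAS, a RAS-family GTPase, rose from 1.5 and 2.36 CPM to 35 and 27 CPM, PRKCA, protein kinase C alpha, from 7.51 and 6.84 CPM to 63.9 and 57.8 CPM, and PIK3CD, a PI3K catalytic subunit, from 15.1 and 15.3 CPM to 78.8 and 87.2 CPM. GRB7 (-2.15) and GAB2 (-1.79), adaptors of receptor kinases, fell. Genes that report ERK output went both ways, 6 higher and 6 lower of 35, and only 3 were lower without AfaR replicate 1. The ERK phosphatase gene DUSP6 read 19.9 and 15.8 CPM against 8.98 and 10.7 CPM and was not called at -0.86, but was called lower at -1.03 without parental replicate 2, and SPRY4 was not called at -0.58. DUSP9, another ERK phosphatase gene, fell from 17 and 19.6 CPM to 0.225 and 0.36 CPM. In the fit of all 6 Cal27 libraries higher and lower calls were each 17.1% of the ERK output list. MYC read 435 and 379 CPM in parental cells and 85.8 and 107 CPM in AfaR, a log2 fold change of -2.08 (SE 0.15), ETV4 fell by 1.48, and ETV5 (1.44), FOSL2 (1.56) and SPRY2 (1.27) rose. EGR1 was called at -1.91 and lost the call without AfaR replicate 1.

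The study tested inhibitors of Aurora kinase A (AURKA) and of WEE1, which act in mitotic entry, and the 17 genes of these kinases and their partners held 0 calls in either direction. AURKA read 185 and 168 CPM in parental cells and 156 and 222 CPM in AfaR, so the groups overlapped (log2 fold change 0.10, SE 0.17, adjusted p = 0.671 by edgeR's quasi-likelihood test). Its activator gene TPX2 read 282 and 233 CPM against 297 and 454 CPM, a log2 fold change of 0.54 (SE 0.20). The scaffold gene NEDD9 read 7.57 and 17 CPM against 7.75 and 7.13 CPM, and WEE1 38.6 and 46 CPM against 31.1 and 36.1 CPM. Parental replicate 2 held the high NEDD9 value, and without parental replicate 1 NEDD9 was called lower, the 1 call of the list in that fit. Of 49 mitosis genes 0 were called, and 1 higher without AfaR replicate 1, although 38 had a positive log2 fold change, with a median of 0.27, and MKI67, the proliferation marker, was at 0.21. Summed over the mitosis list the level was 5486 and 4625 CPM in parental cells and 5326 and 6678 CPM in AfaR, so the groups overlapped. DNA replication genes leaned to the negative side: 46 of 49 had a negative log2 fold change, with a median of -0.49. Of these genes 5 were lower (10.2%) and 1 higher (2.04%), beside 8.06% and 11.5% of all genes tested. That count of lower calls was 1 without AfaR replicate 1 or without parental replicate 1 and 9 without AfaR replicate 2. PCNA, the replication clamp, read 268 and 245 CPM against 111 and 145 CPM and sat at the fold change threshold, while TYMS, thymidylate synthase, was the gene called higher, at 1.05, and lost its call without AfaR replicate 2 or without parental replicate 2.

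Among 23 genes of G1 control 1 was higher (4.35%) and 2 were lower (8.7%), beside 11.5% and 8.06% of all genes tested. CCND2, cyclin D2, read 288 and 170 CPM in parental cells and 7.24 and 6.83 CPM in AfaR, a log2 fold change of -5.02 (SE 0.26). Its partner CDK6 fell from 168 and 164 CPM to 63.3 and 63.8 CPM, and CDKN2C, an inhibitor of CDK4 and CDK6, rose from 12.9 and 11.9 CPM to 50.4 and 59.2 CPM. CCND1, cyclin D1, was not called at 734 and 501 CPM against 434 and 502 CPM. In the list of the MYC network and ribosome biogenesis 8 of 38 genes were lower (21.1%) and 3 higher (7.89%), with MXD4, a MAX partner that opposes MYC, up by 2.63. The lower count ran from 4 without AfaR replicate 1 or without parental replicate 1 to 15 without parental replicate 2.

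Of 46 interferon-stimulated genes 31 were higher and 0 lower, made up of 28 of 34 antiviral genes, 2 of 7 signalling genes and 1 of 5 chemokine and guanylate-binding protein genes, with 45 of the 46 at a positive log2 fold change and a median of 1.66. Type I interferon acts through a complex that holds STAT2 and IRF9 on the interferon-stimulated response element of its target genes. IFI6 read 12 and 17.1 CPM in parental cells and 498 and 360 CPM in AfaR, and IFI44L read 1.8 and 1.03 CPM against 147 and 74 CPM. MX1, an antiviral GTPase, read 70.7 and 76.7 CPM against 674 and 431 CPM. AfaR replicate 1 was the higher in each, and the groups did not overlap. Log2 fold changes were 4.89 (SE 0.53) for IFI6, 6.28 (SE 0.40) for IFI44L and 2.91 (SE 0.23) for MX1. IFIT1 (4.42), MX2 (3.45), HERC5 (3.41), OAS2 (3.30) and ISG15 (2.15) rose, as did IRF9 (2.20), named after its values were seen. Summed over the list, the level was 2204 and 2684 CPM in parental cells and 8064 and 5411 CPM in AfaR, and 24 genes were called higher without AfaR replicate 1.

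The letters of the interferon-stimulated response element, GAAA, 2 bases of any kind and GAAA again (TTTC on both sides for the other strand), were looked for in the same 250 bases, again after the values were seen. Counted by gene as before, they occurred in 3.46% of the 11242 genes tested that had a promoter. The counts were 18 of 25 interferon-stimulated genes called higher and 5 of 11 of those not called. The list was drawn up from genes known to respond to interferon, so a high share is built into it. The promoters of 3 of the strongest risers are shown with matches in capitals, 5′ to 3′ in the direction of the gene: IFI44L at chr1:78620198-78620447 (+), IFI6 at chr1:27672193-27672442 (-) and IFIT1 at chr10:89392373-89392622 (+).
IFI44L: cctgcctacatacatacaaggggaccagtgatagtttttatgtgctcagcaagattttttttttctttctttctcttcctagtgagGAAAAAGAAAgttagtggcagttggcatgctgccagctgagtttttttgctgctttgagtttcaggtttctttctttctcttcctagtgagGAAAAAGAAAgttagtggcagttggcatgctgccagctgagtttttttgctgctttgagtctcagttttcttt
IFI6: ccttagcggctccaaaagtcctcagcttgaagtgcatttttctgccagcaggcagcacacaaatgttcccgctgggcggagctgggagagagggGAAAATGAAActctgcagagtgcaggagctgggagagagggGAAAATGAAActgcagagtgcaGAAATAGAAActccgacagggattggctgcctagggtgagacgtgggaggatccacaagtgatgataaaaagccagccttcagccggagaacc
IFIT1: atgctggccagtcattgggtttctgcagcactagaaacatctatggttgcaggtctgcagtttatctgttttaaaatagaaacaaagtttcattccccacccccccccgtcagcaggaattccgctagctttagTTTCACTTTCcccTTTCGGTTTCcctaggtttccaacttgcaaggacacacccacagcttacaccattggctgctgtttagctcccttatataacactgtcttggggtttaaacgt
The matches number 2 in IFI44L, 3 in IFI6 and 2 in IFIT1.

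Of 32 antigen presentation genes 15 were higher and 0 lower, namely 10 of 11 class II genes, 4 of 16 class I genes and 1 of 5 ligand genes. The class II gene HLA-DRA read 12.1 and 15.2 CPM in parental cells and 173 and 142 CPM in AfaR, a log2 fold change of 3.53 (SE 0.21), and its regulator CIITA read 2.34 and 2.48 CPM against 17.6 and 9.53 CPM. HLA-DPA1 (4.43), HLA-DPB1 (4.66), HLA-DRB1 (3.67) and HLA-DMB (3.44) rose with them. HLA genes resemble each other closely, and the split of reads between them is uncertain. B2M, the class I light chain, was not called at 0.44, and CD274, which encodes PD-L1, was not called at 11.3 and 13.5 CPM against 7.18 and 10.7 CPM. Leukocyte markers summed to 28.96 and 41.79 CPM in parental cells and 31.21 and 33.09 CPM in AfaR with CD3D, CD2 and MS4A1 at 0. Of 5 tested 1 was lower, 0 when any 1 of the 4 libraries was left out, and 0 higher.

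Of 40 cytokine, chemokine and NF-κB feedback genes 15 were lower, 6 higher and 19 not called. IL1A, interleukin 1 alpha, read 404 and 412 CPM in parental cells and 8.7 and 11.3 CPM in AfaR (log2 fold change -5.35, SE 0.17, adjusted p = 4.18e-07 by edgeR's quasi-likelihood test), and IL1B read 460 and 442 CPM against 27.9 and 35.2 CPM. The chemokine gene CCL20 fell by 4.35 and the receptor gene IL6R by 2.07. IL6 moved the other way, from 28.9 and 49.2 CPM to 220 and 222 CPM, and so did the prostaglandin synthase gene PTGS2 at 2.30. CXCL8, at 387 and 758 CPM against 263 and 296 CPM, was not called (log2 fold change -1.03, adjusted p = 0.0553 by edgeR's quasi-likelihood test), and was called lower when parental replicate 1 or either ErlR library was left out.

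In metabolism, 13 of 36 genes of cholesterol and fatty acid synthesis were lower and 0 higher, and 7 were lower when either AfaR library was left out. FASN, fatty acid synthase, read 1190 and 1143 CPM in parental cells and 200 and 194 CPM in AfaR, a log2 fold change of -2.57 (SE 0.25). SCD, the stearoyl-CoA desaturase, fell from 1458 and 1901 CPM to 208 and 130 CPM and lost its call without AfaR replicate 2, and SREBF1, a master regulator of lipid synthesis, fell by 1.89. Of 38 hypoxia and glycolysis genes 8 were lower, 5 without parental replicate 2, and 3 higher, 0 without AfaR replicate 2 and 1 without parental replicate 2. In the fit of all 6 Cal27 libraries lower calls were 21.1% of that list and higher calls 7.89%. Over all genes tested these shares were 8.06% and 11.5%. HK2, a hexokinase, read 234 and 205 CPM against 27 and 28.1 CPM, and CA9 and PDK1 fell by 3.58 and 1.85. The glucose transporter gene SLC2A1 was not called at 0.42. NRF2 targets were higher in 7 of 34 and lower in 1, with HMOX1, heme oxygenase 1, at 4.15 and 4.3 CPM against 29.6 and 45.9 CPM and FTL up by 1.49, and with ALDH1A3 the gene that fell, by 1.84.

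Among genes of drug handling, the drug efflux gene ABCB1 was at 0 in both parental libraries and at 0.112 and 0.18 CPM in AfaR, and was not tested. ABCC3, an efflux transporter, rose by 2.19 and ABCG2 by 2.01 (1.2 without AfaR replicate 2), ABCC1 was not called at 0.10, and AHRR, the repressor of the aryl hydrocarbon receptor, rose from 2.22 and 2.97 CPM to 39.5 and 33.8 CPM. Over that list 7 of 30 genes were higher (23.3%) and 3 lower (10%). Of 21 BCL2 family and death receptor genes 2 were higher, 1 without AfaR replicate 1, and 3 lower. In the fit of all 6 Cal27 libraries these counts were 9.52% and 14.3% of the list, beside 11.5% and 8.06% of all genes tested. BMF, a proapoptotic BH3-only gene, rose by 2.57, and BIK, another, fell by 1.58. MCL1 was not called at 0.23, BCL2L1 at 0.29 and BCL2L11, which encodes BIM, at 0.55, though BCL2L11 was called higher at 1.12 without parental replicate 2. YAP and TAZ pathway genes held 2 higher (6.25%) and 4 lower (12.5%) of 32, with CCN2, a classical target, not called at -0.13. HOX genes held 5 higher (15.6%) and 2 lower (6.25%) of 32. Cancer-testis antigens held 2 higher (33.3%) and 1 lower (16.7%) of 6, among them MAGED1 at -3.40 and MAGED2 at 1.22. These small counts moved when a library was left out: the YAP list had 4 higher without AfaR replicate 2 or parental replicate 1 and 2 lower without AfaR replicate 1, HOX genes had 2 higher without parental replicate 1 and 9 higher without parental replicate 2, and 0 lower when either AfaR library was left out and 1 lower without parental replicate 1 or 2. The antigens had 1 higher when any 1 of these 4 libraries was left out.

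A small set of genes was near absent in 1 group and clearly present in the other. At no more than 3 counts in each parental library and a mean of at least 5 CPM in AfaR there were 22 genes, 20 of them protein coding, and 9 genes showed the reverse. LUM, the proteoglycan lumican, held 3 and 1 counts in parental cells and 794 and 418 in AfaR, a ratio of 291 (exact 95% interval 113 to 1.07e+03). FENDRR and FOXF1, which lie side by side, had ratios of 363 (155 to 1.12e+03) and 118 (54 to 323), AMPH 178 (60.6 to 866) and NTF3, a neurotrophin, 126 (42.8 to 613). FENDRR and FOXF1 lie on opposite strands without overlap in the annotation, and the strand setting of the counting is not given, so transcripts that extend past the annotated ends could not be told apart. These intervals cover counting error only. GDNF, a glial neurotrophic factor that signals through RET, was at 0 counts in both parental libraries and at 87 and 159 in AfaR, at least 39.8-fold higher by a floor of 3 counts per library, and PTGFR and ABCC9 were at least 34.2-fold and 33.6-fold higher. In the reverse direction RHCG, LTF and S100A7, genes of differentiated or secretory epithelium, were at 0 counts in both AfaR libraries and at least 44.9-fold, 39.1-fold and 35.4-fold lower, with LTF at 25 and 200 counts in the parental libraries. GDNF, PTGFR, ABCC9, RHCG, LTF and S100A7 were named after their values were seen.

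Markers of other cell types were read for the same libraries. All 14 fibroblast markers summed to 77.33 and 87.52 CPM in parental cells and 357.3 and 336.9 CPM in AfaR. Of the 7 tested 4 were higher and 1 lower, and COL1A1 gave most of the AfaR sum. DCN, PDGFRA, FAP, POSTN, THY1, TWIST2 and DPT were near 0 and not tested. Of 7 muscle and pericyte markers tested 3 were higher. All 10 listed summed to 190.5 and 191.3 CPM in AfaR. MCAM, an adhesion molecule also found on carcinoma cells, gave 166 and 173 CPM of these sums. Endothelial markers summed to 33.17 and 35.67 CPM against 39.74 and 32.07 CPM with 0 of 3 called.

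AfaR also differed from the erlotinib-resistant Cal27 population, in a direct test between these 2 groups that used no parental library as a reference. AfaR was higher than ErlR in 2781 genes, 18.2% of those tested, and lower in 1353, 8.86%, in sum 4134 or 27.1%. It shares the AfaR libraries with the comparison against parental cells. For ErlR against the same parental libraries, which both comparisons share, 544 genes were called higher (3.56%) and 1515 lower (9.92%), together 13.5%. Of the 1761 genes higher in AfaR than in parental cells, 1395 were also higher than in ErlR. Of the 1230 lower genes, 645 were lower than in ErlR. The 12 largest falls of AfaR were all called lower in ErlR as well, such as OLFM4 (-9.34 in ErlR), KRT14 (-3.19) and IL1A (-1.22). Of the 12 largest rises FENDRR (3.08 in ErlR) and FOXF1 (2.52) were called higher in ErlR, and the others were not.

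VIM read 25.7 and 22.6 CPM in ErlR, ZEB1 0.974 and 0.622 CPM and FGFR1 1.04 and 1.49 CPM, beside AfaR values of 1167 and 1311, 16.1 and 16.9, and 70.5 and 67.2 CPM. AfaR was higher by log2 differences of 5.68, 4.36 and 5.75 (all called by edgeR's quasi-likelihood test). TP63 read 374 and 414 CPM in ErlR and was lower in AfaR by a log2 difference of -4.15, KRT5 read 2942 and 3136 CPM (-3.01), and CDH1 read 238 and 251 CPM (-1.75). The ligand genes AREG (117 and 59.6 CPM in ErlR) and TGFA (174 and 91.4 CPM) differed by -4.14 and -3.16, EGFR (1675 and 1395 CPM) by -1.05, and DUSP6 (78.5 and 74 CPM) by -2.96. MX1 read 62.1 and 45.8 CPM in ErlR, a difference of 3.36, and HLA-DRA 4.16 and 2.67 CPM, a difference of 5.53. LCN2, at 58 and 20.7 CPM, and OLFM4, at 0.065 and 0.249 CPM, were not called between AfaR and ErlR (-0.04 and 0.97), and neither was MET at -0.09. By size the largest called differences were ALX4 (7.98), ATOH8 (7.82), LUM (7.71) and PSG8 (8.12, a member of a family of near-identical genes) in the direction of AfaR, and ZBED2 (-6.14), ENTPD3 (-5.86), KRT6A (-5.63), SLC6A11 (-5.56) and CALML3 (-5.33) in that of ErlR. SSC5D, at 0 counts in both ErlR libraries and 16.3 and 10.6 CPM in AfaR, stood with them, as its fitted difference was set by the zeros. Others also rested on few counts: LUM read 0.065 and 0.249 CPM in ErlR, and in AfaR ENTPD3 held 4 and 5 counts and SLC6A11 7 and 3. Between fits that left out 1 library ATOH8 ran from 6.84 to 11.08 and PSG8 from 7.29 to 10.50, so the order by size is uncertain.

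FaDu shares no library with Cal27, and its own afatinib-resistant cells were compared with its own parental cells. In FaDu 978 genes were higher in AfaR (6.48%) and 144 lower (0.954%), together 7.43%. Among 13995 genes tested in both lines, 338 were higher in both, 23.7% of the 1429 higher in Cal27 AfaR and 41.2% of the 820 higher in FaDu AfaR. In the other direction 40 were lower in both, 3.69% of 1084 in Cal27 and 31.2% of 128 in FaDu. Opposite calls were made for 15 genes higher in Cal27 and lower in FaDu, 11.7% of the 128 lower in FaDu. They were also made for 65 genes lower in Cal27 and higher in FaDu, 7.93% of the 820. These shares were near those of all genes tested in Cal27, 11.5% higher and 8.06% lower. A test of the difference between the AfaR effects of the lines, over all 12 libraries and 16240 genes, called 773 genes with a higher effect in Cal27 (4.76%) and 1230 with a lower one (7.57%), together 12.3%.

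Epithelial genes were among those with a lower effect. CDH1 read 196 and 217 CPM in FaDu parental cells and 291 and 375 CPM in FaDu AfaR, and the Cal27 effect minus the FaDu effect was -3.13. EPCAM (-2.64), ESRP1 (-3.44), GRHL2 (-3.00), TP63 (-3.50) and KRT5 (-2.98) differed in the same direction, and none of these was called in FaDu itself. VIM read 20.3 and 16.6 CPM in FaDu parental cells and 21.1 and 16.9 CPM in FaDu AfaR, a log2 fold change of 0.04 beside 5.74 in Cal27. SPARC was called in opposite directions, at -1.32 in FaDu from a low level of 2.99 and 3.56 CPM and at 2.78 in Cal27. CCND2 was opposite too, rising from 69.2 and 89.8 CPM to 377 and 486 CPM in FaDu (2.44) while it fell by 5.02 in Cal27. EGFR differed by -1.23, with 534 and 494 CPM in FaDu parental cells and 630 and 673 CPM in FaDu AfaR.

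Some changes were called in both lines. CDH2 rose by 1.45 in FaDu and 1.59 in Cal27, a difference of 0.12 that was not called, and MX1 rose by 2.66 and 2.91, a difference of 0.22 that was not called. FGFR1 rose in both, from 3.18 and 2.75 CPM to 13.2 and 11 CPM in FaDu (2.03), and by 4.06 more on the log2 scale in Cal27. MMP2 (2.87 in FaDu), MYLK (2.69), IFI6 (2.45), TWIST1 (1.24) and MRAS (1.64) rose in FaDu as well and by more in Cal27, each with a called difference. COL5A1 (1.92), TGFB2 (1.54), INSR (1.84), IL6 (2.57) and CIITA (2.26) rose in FaDu with no called difference from Cal27, and MMP7 fell in both, by 2.88 in FaDu and 3.93 in Cal27.

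**Figure D4:**
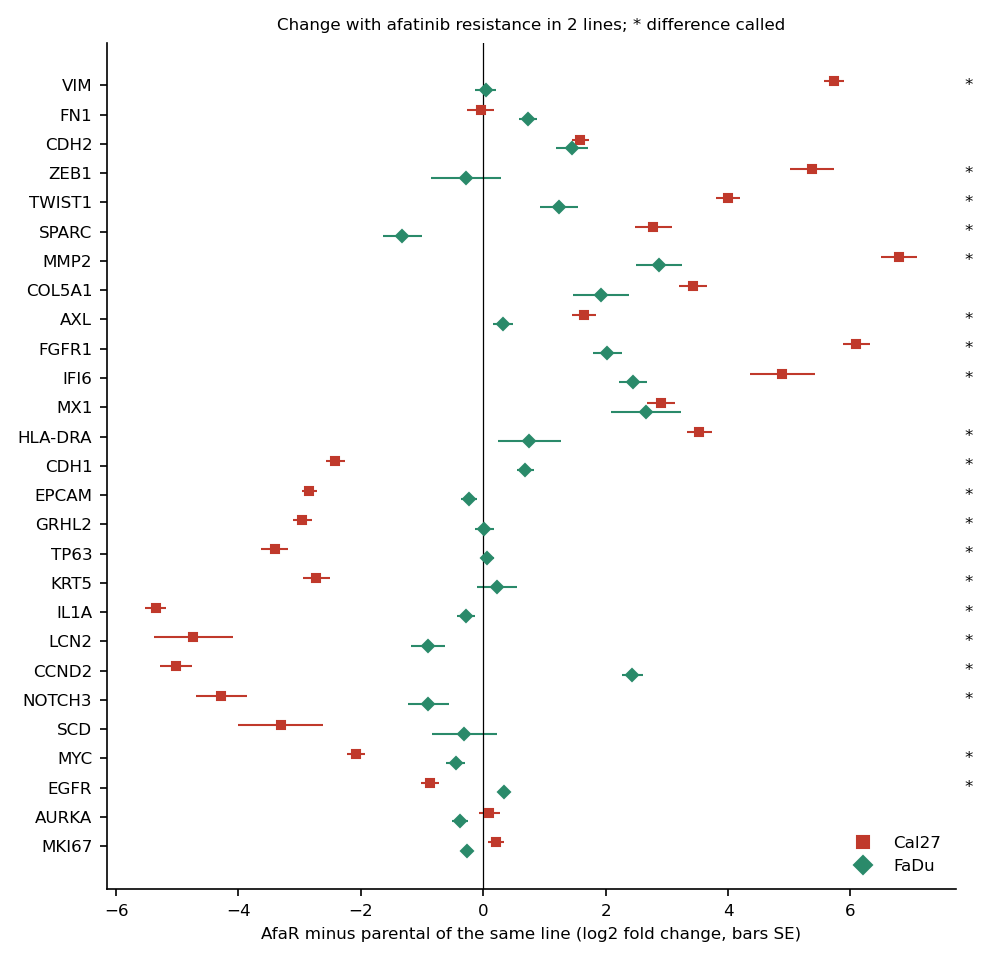
For each gene, the log2 fold change of AfaR over the parental cells of the same line is drawn with its SE for Cal27 (red squares) and FaDu (green diamonds), and an asterisk marks a called difference between the lines. The FaDu points of the epithelial genes from CDH1 to KRT5 lie near 0 or above it while the Cal27 points lie at or below -2.42, and CDH2 and MX1 nearly coincide.

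Gene position was looked at last and after the values were seen, in the 7449 genes with a parental mean of at least 20 CPM, a choice that leaves out genes that rose from near 0. Their median log2 fold change was -0.11 and 41.3% were positive. On chromosome 3 the median of 384 genes was 0.26 and 69% were positive, on chromosome 4 that of 207 genes was 0.21 and 64.3% were positive, and on chromosome 21 the median of 81 genes was -0.51 and 19.8% were positive. In windows of 20 Mb, 26 of 31 genes in the first window of chromosome 3 were positive (median 0.61), 22 of 25 in the next (0.50) and 59 of 72 in the one from 40 to 60 Mb (0.54). Both AfaR libraries showed this, at medians of 0.58 and 0.56, 0.50 and 0.47, and 0.51 and 0.54. The same windows stood at 0.64, 0.53 and 0.68 in ErlR against the shared parental libraries, at 0.01, -0.14 and -0.20 in AfaR against ErlR, and at -0.13, -0.24 and -0.17 in FaDu AfaR. On chromosome 21 the windows from 20 to 40 Mb and from 40 Mb held 5 of 42 and 8 of 32 positive genes (medians -0.55 and -0.70), with 0.05 and -0.11 in ErlR, and the first window of chromosome 20 held 4 of 56 (-0.77), with -0.40 in ErlR. Over all 132 windows with at least 20 genes the medians ran from -0.77 to 0.61. These are descriptions of RNA levels, and DNA copy number was not measured.

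**Figure D5:**
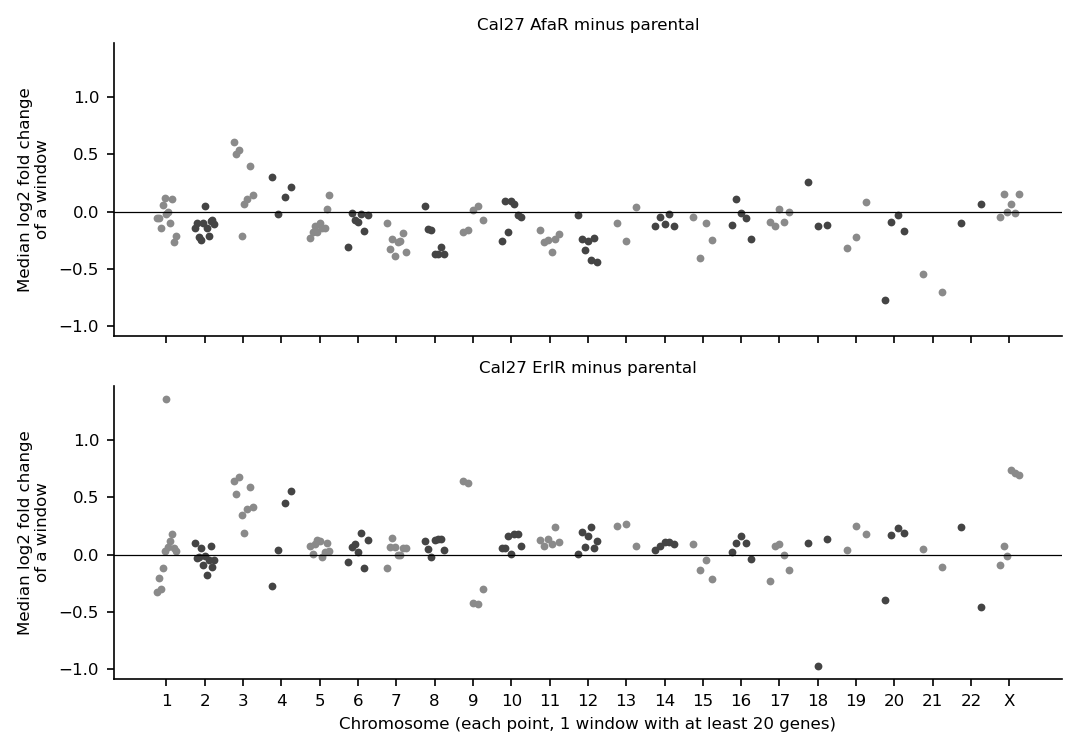
Each point is the median log2 fold change of the genes in 1 window of 20 Mb with at least 20 genes of 20 CPM or more in parental cells, in chromosome order on the x axis, for AfaR over parental (top) and ErlR over parental (bottom), which share the parental libraries. In the top panel the 3 windows above 0.45 all lie on chromosome 3, and 2 of the 3 below -0.45 lie on chromosome 21.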

How the data were processed

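Poly(A)-selected RNA with ERCC spike-ins was sequenced by the authors, and, per the labels and the study's methods, reads were trimmed with Trimmomatic 0.36, aligned to GRCh38 with STAR 2.5.2b and counted per gene with featureCounts of Subread 1.5.2. The strand setting of the counting is not given in the sources used here. The deposited values were raw read counts of 58051 genes and 92 ERCC rows per library, and the authors' 4 tables of normalized counts, which hold the same libraries, were not used. Library groups came from the labels, which give all libraries the same batch.

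ERCC rows were left out. The 6 Cal27 libraries were fitted together with edgeR 4.0.16 (R 4.3.3, limma 3.58.1) after filterByExpr and TMM, with 3 residual degrees of freedom, and AfaR was tested against parental cells and against ErlR by the quasi-likelihood test. The difference between lines was tested in 1 fit of 12 libraries, while FaDu values came from its own 6. Each SE was the size of the log2 fold change over the square root of the test's F statistic. It is therefore not a measure of spread separate from the p-value. DESeq2 1.42.0, other scalings and filters, a replicate block and leaving out each library were alternatives. Scripts were tested on simulated data. Depth per library (16334937 to 16689855 in the comparison) and 2 libraries per group set the precision, and 3 counts per library was the floor for a gene at 0.

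Genes named were the 12 largest rises and falls at a mean of at least 5 CPM, the anchors and up to 6 called members of each list, and the 5 largest differences per direction in the other tests, unless a gene is said to be named after its values were seen. Some genes that these rules pick are not reported here. The members, lists and rules were chosen with earlier results of these data known. Promoter sequences came from RefSeq, and 56948 gene identifiers matched a name.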

Additional observations from a re-analysis of the deposited data

Results flagged for a closer look

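The effect of afatinib resistance differed between Cal27 and FaDu in 773 genes with the higher effect in Cal27 and 1230 with the lower, by edgeR's quasi-likelihood test of the difference itself. The genes named below differed in that test. Values are log2 fold changes in Cal27 minus those in FaDu.

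Among the genes with the strongest rises in Cal27, the difference was 9.39 for LUM, 7.35 for TGFBR3, 5.57 for NTF3, 5.46 for FOXF1, 5.44 for AMPH, 5.35 for KLHL4, 5.33 for OLFML2B, 4.33 for PRUNE2, 3.90 for MMP2 and 3.85 for IFI44L. LUM, AMPH, FOXF1, PRUNE2, NTF3, OLFML2B and KLHL4, and among the falls below KRT6B, S100A8, SERPINA5, LINC02972 and KLK8, were below 2 CPM in all 4 FaDu libraries, and their differences rest on few counts there. LUM, AMPH, FOXF1, PRUNE2, S100A8, SERPINA5 and LINC02972 did not pass the filter of the fit on FaDu alone. For ALPP, a placental alkaline phosphatase, it was 6.58, with 4.46 and 28 CPM in FaDu parental cells against 1.36 and 1.74 CPM in FaDu AfaR. For EEF1A2, a translation elongation factor of muscle and nerve, it was 6.45, with 212 and 213 CPM in FaDu parental cells and 66.5 and 120 CPM in FaDu AfaR while Cal27 went from 6.13 and 7.57 CPM to 202 and 331 CPM. For VIM it was 5.68.

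Among the genes with the strongest falls, the difference was -8.11 for KRT6B, -7.58 for S100A8, -7.53 for SERPINA5, -6.59 for S100A9, -5.86 for KRT14, -5.71 for LINC02972, -5.51 for TMPRSS4, -5.47 for KLK8, -5.21 for DUSP9 and -5.09 for IL1A. KRT6B was at or below 0.238 CPM in the FaDu libraries compared and its difference lost the call in 8 of the fits that left out 1 library, with values from -9.44 to -6.58. S100A8 was at 0 counts in the first library of both FaDu groups and lost its call once, without FaDu AfaR replicate 2, with values from -12.11 to -2.75. CCND2 differed by -7.48 and the chemokine gene CCL28 by -6.24, the latter with FaDu parental values of 0.0475 and 0 CPM.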

How the results depend on the processing

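Without each library in turn, genes higher in AfaR than in parental cells numbered from 1241 (without AfaR replicate 1) to 1860 and lower ones from 934 to 1292. Against ErlR the ranges were 2124 to 2868 and 1092 to 1442, and for the difference between lines 585 to 777 and 924 to 1304. A filter of at least 10 counts in every library, which tests fewer genes and removes those near 0 in 1 group, left 1162 genes higher than in parental cells and 1805 higher than in ErlR. A test against a fold change of 2 (glmTreat), stricter by construction, left 900 higher and 566 lower against parental cells, 1615 and 574 against ErlR, and 223 and 431 between lines. Among the genes followed by name, no called direction was reversed in any setting run. Values near 0 that were not called, such as AURKA (-0.16 to 0.34), changed sign when a library was left out. Over all genes DESeq2 shared 2735 of the 2991 calls. ERCC scaling moved the median difference between lines to -0.18 and the share of higher calls from 38.6% to 28.7%, and upper-quartile scaling moved the median against ErlR to 0.12. Deviations of same-numbered libraries correlated at -0.2014 between parental and AfaR cells, 0.1043 between parental and ErlR and -0.05514 between AfaR and ErlR. With 2 libraries per group this cannot settle whether the numbers mark libraries prepared together, and the main fit used no pairing. With the replicate block 1709 genes were higher and 1179 lower against parental cells, 2708 and 1300 against ErlR and 755 and 1207 between lines. On the 4 libraries alone the block gave 1788 and 1232 and the crossed pairing 1868 and 1282, both added after seeing the data. With 2 libraries per group and 3 residual degrees of freedom, changes near the threshold, such as SNAI2 and PCNA, moved across it between settings.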
